A study of Mus musculus with 2 samples.

Results

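The metallothionein genes and their zinc response were examined in interscapular brown fat of double-knockout mice (DKO), which lack the nuclear receptor gene Rora among their targeted genes, against wild-type mice (WT). The set held 7 genes: the metallothioneins Mt1, Mt2, Mt3 and Mt4, the zinc-sensing transcription factor Mtf1, and the zinc transporters Slc30a1 and Slc39a14. Probes were chosen by the gene name in the spot files or by a description that names a metallothionein. That gave 9 probes by gene name and 7 by description, and 1 more for Slc39a14, whose name is absent from the gene name column and which was found by the RefSeq accession listed among the probe's accessions. Of these 17 probes, out of 40979 kept once outlier spots were removed, 13 belong to the 7 genes. The other 4 read Tesmin and Lin54, whose descriptions mention a metallothionein-like protein. The genes were chosen with the DKO over WT ratios of these arrays already known, so those ratios are given as a description.

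Both genotypes were males on the C57BL/6 background, 2 to 3 months old, with 4 mice named per genotype and tissue taken near circadian time 20. The 2 whole mouse genome arrays each carried RNA of both genotypes. On the first DKO was labelled with Cy5 and WT with Cy3, and on the second the dyes were swapped. The sources used here do not give whether mice were pooled or whether the arrays shared extracts. The arrays therefore counted as 1 replicate per genotype, which allows no test between genotypes. Differences are log2 ratios of DKO over WT, given per array or as the mean ± SD of both arrays (n = 2 arrays), an SD in which dye, measurement error and any difference between extracts cannot be told apart. A gene or probe was called by size: a mean ratio of 2-fold or more, 1.5-fold or more in that direction on each of the arrays, and the higher genotype well above background in both hybridisations. Between 77.6% and 85.4% of probe spots were well above background per channel. Rora read −0.42 and −0.35 and was not called, and whether its probe lies in the deleted part is not given. That probe was dim, and at such signals the offset added in processing shrinks ratios. In the scanner software's ratios, which lack that offset, Rora read −0.91 and −1.02, a mean of −0.96 ± 0.07, still short of 2-fold. All 14 brown adipocyte markers were detected, with a median ratio of 0.03.

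Metallothioneins are small, cysteine-rich proteins that bind zinc and copper and buffer their free levels. Free zinc activates MTF1, which binds metal response elements in promoters and turns on metallothioneins and the zinc exporter Slc30a1. Mt1 and Mt2 are made in most tissues and also respond to glucocorticoids and inflammatory signals, while Mt3 is known mainly from brain and Mt4 from stratified epithelium. In brown fat, metallothionein is known to be induced by cold.

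The promoters are shown first because 2 adjacent genes of one cluster, Mt2 and Mt1, stood higher in DKO while Mt3 and Mt4 beside them did not, and because Slc30a1 is the classical MTF1 target outside the cluster. Each window runs from 250 bases before to 50 after the transcript start, on the + strand, from RefSeq on build GRCm38.p6: Mt1 at chr8:94178839-94179138, Mt2 at chr8:94172368-94172667, Mt3 at chr8:94152357-94152656, Mt4 at chr8:94136954-94137253 and Slc30a1 at chr1:191906531-191906830. Capitals mark the core of the metal response element, searched as TGCACNC or TGCGCNC on both strands.
Mt1: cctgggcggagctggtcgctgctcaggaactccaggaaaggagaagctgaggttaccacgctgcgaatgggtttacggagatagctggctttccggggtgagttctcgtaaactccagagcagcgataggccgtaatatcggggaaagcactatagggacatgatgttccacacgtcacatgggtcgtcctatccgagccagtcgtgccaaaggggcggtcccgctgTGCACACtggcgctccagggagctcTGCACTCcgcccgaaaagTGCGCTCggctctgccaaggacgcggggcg
Mt2: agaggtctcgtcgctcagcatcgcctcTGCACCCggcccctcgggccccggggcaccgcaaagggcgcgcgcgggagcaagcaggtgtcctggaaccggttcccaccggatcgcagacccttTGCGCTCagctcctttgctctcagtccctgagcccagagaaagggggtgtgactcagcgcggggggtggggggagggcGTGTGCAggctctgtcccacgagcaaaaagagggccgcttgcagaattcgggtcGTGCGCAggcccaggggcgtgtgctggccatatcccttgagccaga
Mt3: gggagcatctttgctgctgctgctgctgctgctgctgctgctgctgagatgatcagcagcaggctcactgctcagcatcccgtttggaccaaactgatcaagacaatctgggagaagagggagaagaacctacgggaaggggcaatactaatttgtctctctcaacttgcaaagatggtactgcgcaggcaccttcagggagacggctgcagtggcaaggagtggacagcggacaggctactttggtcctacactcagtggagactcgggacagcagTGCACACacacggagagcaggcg
Mt4: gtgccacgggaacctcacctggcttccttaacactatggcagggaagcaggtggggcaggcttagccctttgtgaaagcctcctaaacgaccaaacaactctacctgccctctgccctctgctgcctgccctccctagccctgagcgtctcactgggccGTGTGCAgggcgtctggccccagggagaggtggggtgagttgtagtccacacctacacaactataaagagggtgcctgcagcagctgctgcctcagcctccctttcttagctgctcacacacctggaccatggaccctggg
Slc30a1: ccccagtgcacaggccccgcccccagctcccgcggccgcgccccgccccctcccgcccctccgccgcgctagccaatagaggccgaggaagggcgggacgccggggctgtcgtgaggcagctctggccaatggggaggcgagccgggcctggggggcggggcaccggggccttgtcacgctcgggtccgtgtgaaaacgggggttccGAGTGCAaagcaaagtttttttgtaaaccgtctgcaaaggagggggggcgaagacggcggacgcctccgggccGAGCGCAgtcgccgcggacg

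Mt2 held 4 cores and Mt1 held 3, against 1 each in Mt3 and Mt4, 2 in Slc30a1 and 0 in Mtf1, which was searched in the same way and is not printed. No 2 cores overlapped. Of 32851 promoter windows in the table, 25.7% held at least 1 core, 7.11% at least 2, 1.97% at least 3 and 0.517% at least 4. The Mt2 cores began 223, 128 and 50 bases before the start and 5 bases into the transcript, with 2 on each strand. In Mt1 they lay on the given strand, 23 bases before the RefSeq start and 3 and 21 bases into that transcript. Positions and counts hold for these windows and starts alone. Sequence outside the windows and other transcript starts of these genes were not searched. The ROR half-site AGGTCA, searched on both strands, occurred in none of these 6 windows, against 16.3% of all windows. At that share, none in 6 windows says little. A match describes letters only, and no binding was measured.

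**Figure D1:**
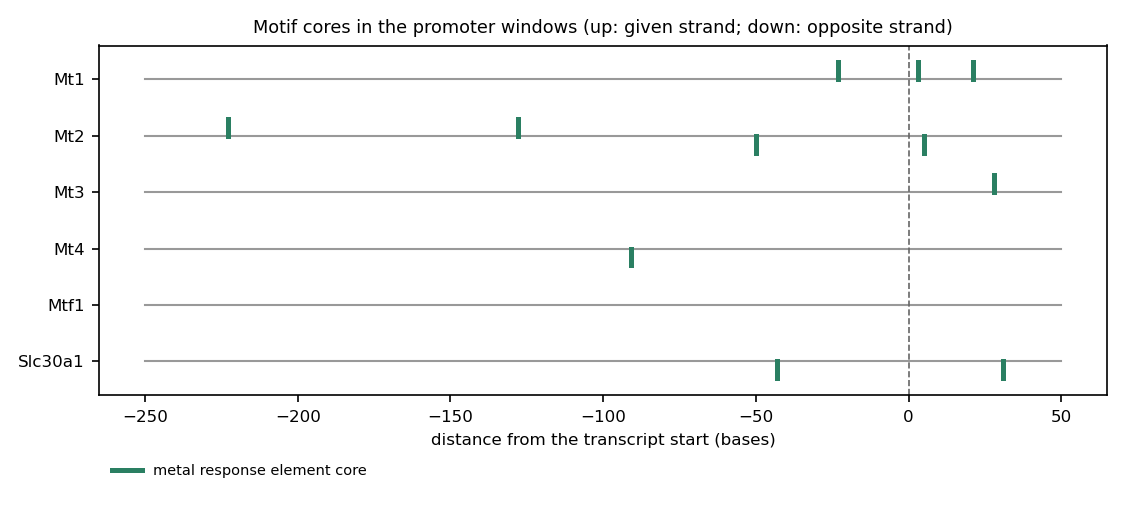
Metal response element cores in the promoter windows of 6 genes. The horizontal axis is the distance from the transcript start in bases, and marks above or below a line are cores on the given or the opposite strand. Mt2 has 4 cores, Mt1 3, Slc30a1 2, Mt3 and Mt4 1 each, and Mtf1 0.

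Mt2 (gene ID 17750), one of the 2 widely expressed metallothioneins, showed the widest difference of the 7 genes. Its brighter probe (A_51_P246317) had log2 signals of 11.98 and 11.82 in DKO on the arrays with DKO in Cy5 and in Cy3, against 9.89 and 10.11 in WT. These signals are background-corrected, loess-normalised and scaled between arrays. Both DKO values lay above both WT values by far more than the arrays differed within a genotype, a distance that does not measure the spread between mice. The unprocessed spot signals were 5076 and 3226 in DKO, against 780 and 1241 in WT, over local backgrounds between 57 and 73. The log2 ratios were 2.09 and 1.71, a mean of 1.90 ± 0.27 or 3.73-fold. Mt2 stood at rank 3 among 28674 measured genes and transcripts, and at ranks 3 and 6 on the single arrays. None of its spots was saturated.

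Of the 7 genes, Mt2 was the one called. Across the 28674 genes and transcripts, 29 or 0.101% were called higher in DKO and 7 or 0.0244% lower. With the scanner software's ratios those counts were 52 and 28. Because the set was chosen with these ratios known, nothing is read from the share of members called.

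A second Mt2 probe (A_52_P410334), described as part of metallothionein-II, was much dimmer. Its log2 signals were 7.48 and 7.30 in DKO, against 6.72 and 6.79 in WT, so the genotypes did not overlap there either. Its ratios were 0.76 and 0.51, a mean of 0.63 ± 0.18 or 1.55-fold, below the size rule. With the scanner software's ratios, which lack the added signal offset of 50, it read 1.11 ± 0.25 or 2.17-fold and met the rule. The brighter probe moved less between these settings, to 1.96 ± 0.31.

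Mt1 (gene ID 17748), the other widely expressed metallothionein, was also higher in DKO on each array but did not reach 2-fold. Its brighter probe (A_51_P294979) had log2 signals of 11.19 and 11.11 in DKO, against 10.40 and 10.39 in WT. The unprocessed spot signals were 2934 and 1949 in DKO, against 1099 and 1484 in WT. Both normalised DKO values lay above both WT values. The ratios were 0.79 and 0.73, a mean of 0.76 ± 0.05 or 1.69-fold, at rank 56 of 28674. Mt1 and Mt2 were both at least 1.5-fold higher on each array, as were 58 genes and transcripts or 0.202% in all.

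The 2 Mt1 probes disagreed. The dimmer one (A_52_P423810) carries the Ensembl transcript and a GenBank accession that the file also lists for the brighter one. Its log2 signals were 7.42 and 7.37 in DKO, against 7.36 and 7.36 in WT. Its ratios of 0.06 and 0.02, a mean of 0.04 ± 0.03, showed no difference of the size seen with the brighter probe. The scanner software's ratios kept that gap, at 0.78 ± 0.08 for the brighter and 0.06 ± 0.01 for the dimmer. Mt1 and Mt2 are close in sequence, and cross-hybridisation between them was not tested.

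Between the brighter probes, the Mt2 ratio exceeded the Mt1 ratio by 1.29 where DKO was in Cy5 and by 0.98 where it was in Cy3. That gap of 1.14 ± 0.22 was wider than the distance between arrays for either gene, but its size depended on the probes used. The dimmer Mt2 probe, at 0.63, lay below the brighter Mt1 probe at 0.76. In the scanner software's ratios it lay above, at 1.11 against 0.78. With the probes of each gene averaged, Mt2 read 1.27 and Mt1 0.40. The scanner software's error model describes measurement error within an array and not animals. Its deposited p-values were 2.05e-21 and 4.55e-17 for the brighter Mt2 probe. For the brighter Mt1 probe they were 1.61e-06 and 2.21e-05, and for the dimmer Mt1 probe 0.701 and 0.758. At the dimmer Mt2 probe they were 8.44e-09 and 2.96e-05.

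**Figure D2:**
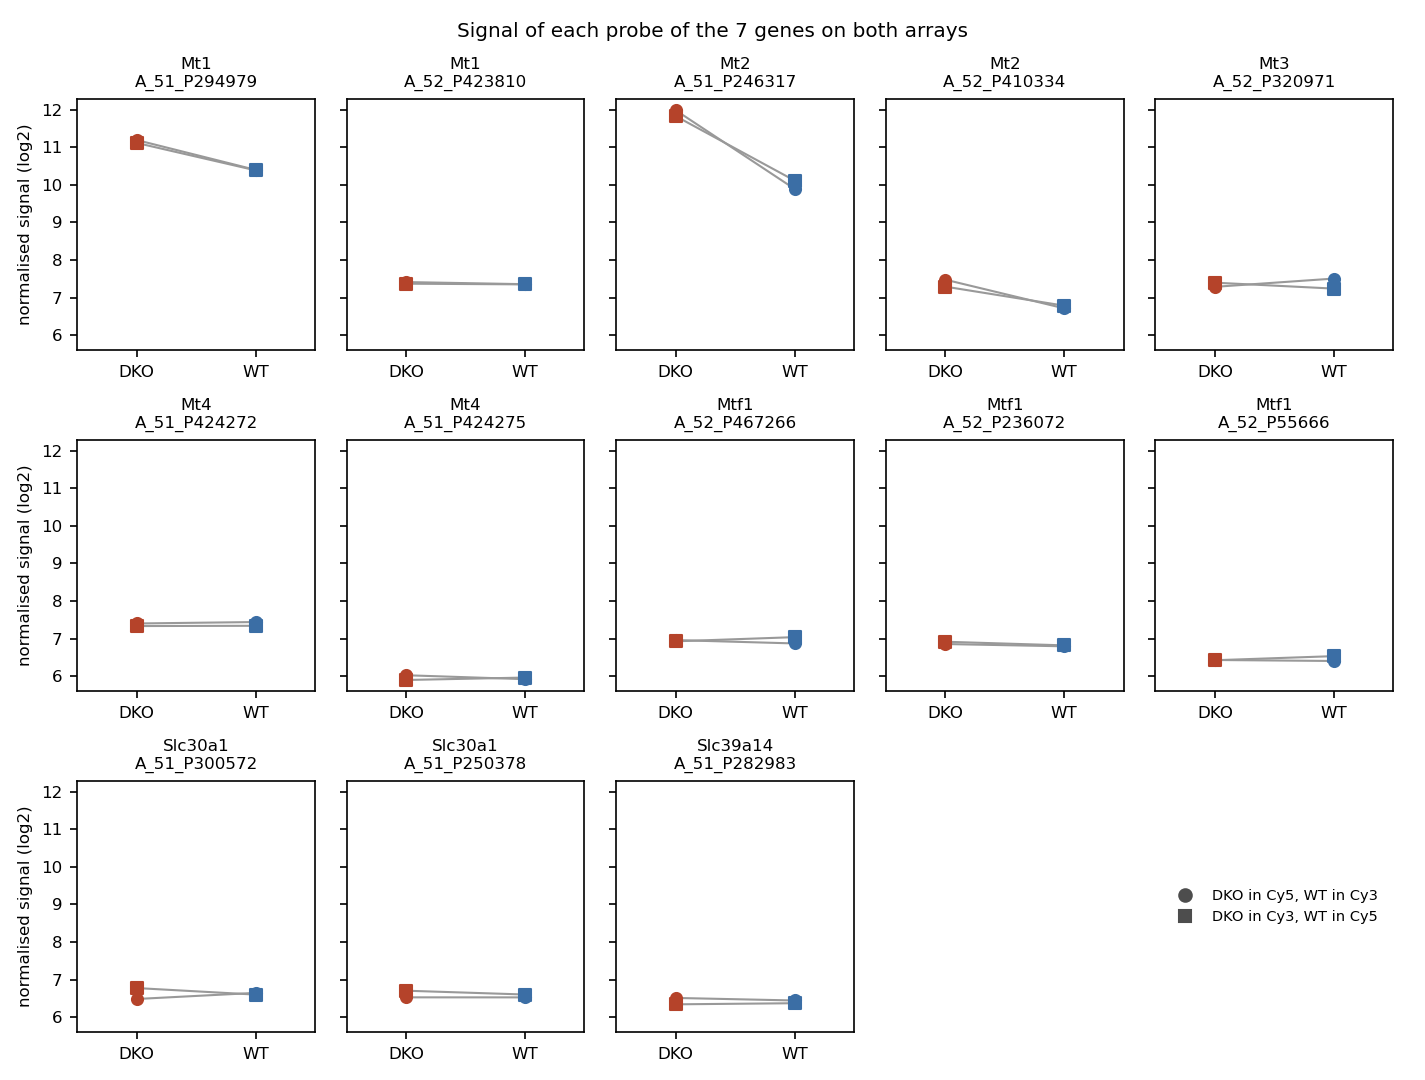
Normalised log2 signal (vertical axis) of the 13 probes of the 7 genes in DKO and WT. Each line joins the 2 genotypes on one array, circles for the array with DKO in Cy5 and squares for the array with DKO in Cy3. The brighter Mt2 probe lies near 12 in DKO and near 10 in WT, the brighter Mt1 and dimmer Mt2 probes slope less, and the other 10 probes have lines that are nearly flat or cross.

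Mt3, a metallothionein known from neurons, did not differ in a way that both arrays shared. Its log2 signals were 7.29 and 7.40 in DKO, against 7.51 and 7.24 in WT. The genotypes overlapped, and the ratios of −0.22 and 0.16 had opposite signs, with a mean of −0.03 ± 0.27.

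Mt4, the metallothionein of stratified epithelium, had one probe above background (A_51_P424272) with log2 signals of 7.41 and 7.34 in DKO, against 7.45 and 7.35 in WT. Its ratio was −0.02 ± 0.02. The other Mt4 probe (A_51_P424275) was not well above background in either genotype on either array and is the sole one of the 17 left out by that filter. Markers of stratified epithelium, the known site of Mt4, had a median ratio of 0.02 over 8 measured genes, among them Krt5 (0.01 ± 0.02) and Lor (0.03 ± 0.17).

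Mtf1 encodes the zinc sensor that drives metallothionein transcription, and its 3 probes lay near 0. The brightest (A_52_P467266) had log2 signals of 6.97 and 6.93 in DKO, against 6.88 and 7.04 in WT, and a ratio of −0.01 ± 0.14. The other 2 read 0.08 ± 0.03 and −0.04 ± 0.10. None of the 3 was called with the scanner software's ratios, where they ranged from −0.19 ± 0.22 to 0.18 ± 0.15. Transcript level does not show the activity of this factor, which responds to zinc as a protein.

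Slc30a1 exports zinc across the plasma membrane and is itself induced by zinc through MTF1. Its brighter probe (A_51_P300572) had log2 signals of 6.49 and 6.78 in DKO, against 6.65 and 6.61 in WT. The genotypes overlapped, with ratios of −0.16 and 0.17 and a mean of 0.01 ± 0.24. The second probe read 0.05 ± 0.07.

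Slc39a14 imports zinc and iron and is induced in liver during the acute phase. Its probe had log2 signals of 6.52 and 6.35 in DKO, against 6.45 and 6.38 in WT, and a ratio of 0.02 ± 0.07. The probes of Mtf1, Slc30a1 and Slc39a14 were dim, and at such signals the added offset shrinks ratios. In the scanner software's ratios, Slc30a1 read 0.04 ± 0.44 and 0.10 ± 0.30, and Slc39a14 read 0.06 ± 0.02.

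Apart from the brighter Mt1 probe and both Mt2 probes, 14 probes were left. Their mean ratios ran from −0.04 to 0.08, 4 lay above 0 on both arrays, 1 below 0 on both, and 9 differed in sign. None was called under either kind of ratio. The lowest error-model p-value in the deposited files among the 14 was 0.0753. Over all measured genes and transcripts, 19.2% lay above 0 on both arrays, 17.9% below, and 18044 of 28674 differed in sign. After loess 0.126% were called in either direction, so 0 called says little about 14 probes. Tesmin, a testis protein with a cysteine-rich region, was read by 3 of these probes, and Lin54, a subunit of a cell cycle repressor complex, by 1.

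**Figure D3:**
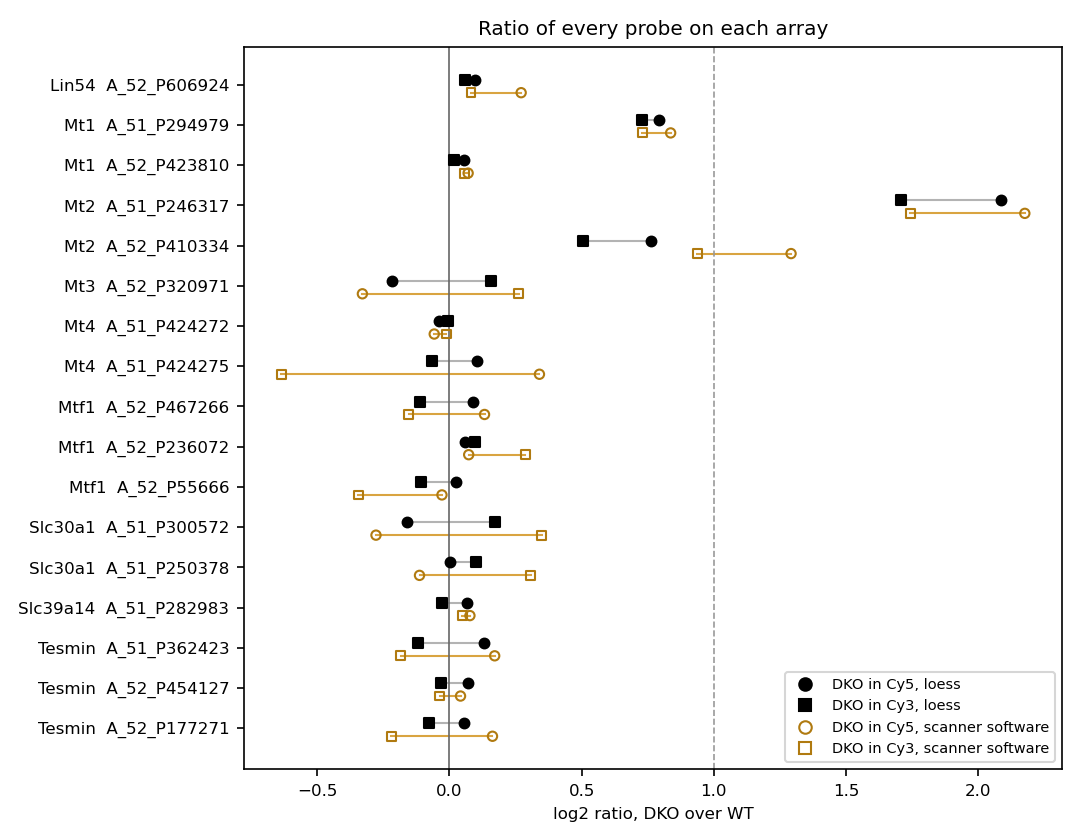
Log2 ratio of DKO over WT (horizontal axis) for all 17 probes. Filled symbols are ratios after loess, open symbols the scanner software's ratios, circles the array with DKO in Cy5 and squares the array with DKO in Cy3, and the dashed line marks the 2-fold size. The brighter Mt1 probe and both Mt2 probes lie right of 0 on both arrays, and all other probes lie near 0 or on both sides of it.

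The 4 metallothionein genes lie next to each other in the order Mt4, Mt3, Mt2, Mt1 on chromosome 8 in the RefSeq annotation of GRCm38.p6. Of the 12 protein-coding genes flanking the cluster, 6 on each side, 10 were measured and 0 were called. Over all measured genes and transcripts 0.126% were called in either direction, so 0 of 10 says little. Nup93, the nearest on the Mt1 side, read −0.01 ± 0.07, and Bbs2, the nearest on the Mt4 side, read 0.005 ± 0.03. The flanking genes had a median of 0.01. On both arrays 2 lay above 0 and 3 below, against 19.2% and 17.9% of all measured genes and transcripts. One of the 2 was Herpud1, a component of endoplasmic reticulum protein degradation, at 0.49 and 0.45 with a mean of 0.47 ± 0.03, named here after its value was seen.

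**Figure D4:**
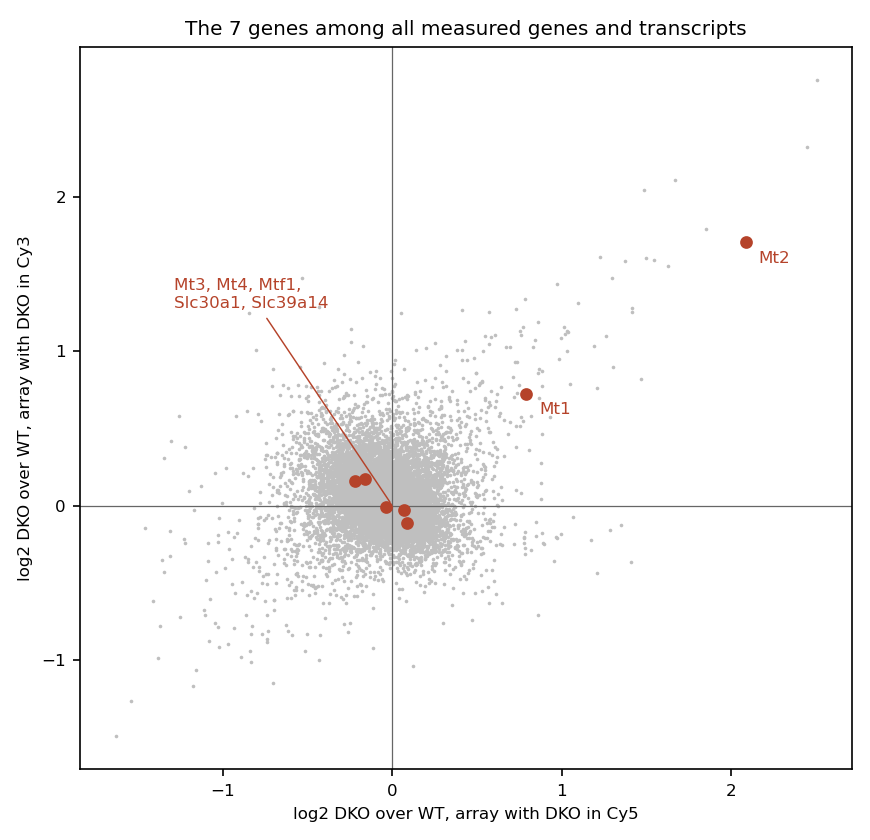
Log2 ratio of DKO over WT on the array with DKO in Cy5 (horizontal axis), set against the array with the dyes swapped (vertical axis), for 28674 measured genes and transcripts in grey. The 7 genes are marked by the brightest probe of each. Mt2 at 2.09 and 1.71 and Mt1 at 0.79 and 0.73 lie toward the upper right, and the other 5 lie within the central cloud.

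Zinc transporters beyond Slc30a1 and Slc39a14 showed no common direction. Of 22 genes of the SLC30 exporter and SLC39 importer families, 17 had a probe, 16 were measured, and 0 were called in either direction. Their median ratio was 0.01, against 0.00204 over all measured genes and transcripts. On both arrays 1 lay above 0 and 4 below, and 11 differed in sign. The background shares were 19.2% above 0 on both arrays, 17.9% below, and 0.126% called in either direction.

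Among exporters, Slc30a9 read 0.09 ± 0.43 and Slc30a6, which loads zinc into the Golgi, read −0.08 ± 0.05. Slc30a5, its Golgi partner, was the one transporter above 0 on both arrays, at 0.19 and 0.12. Among importers, Slc39a7, which releases zinc from the endoplasmic reticulum and Golgi, read 0.10 ± 0.61 and differed in sign between arrays, and Slc39a11 read −0.01 ± 0.15. The lowest of the 16 was Slc39a6, a plasma membrane importer, at −0.31 and −0.19, a mean of −0.25 ± 0.08 and −0.52 with the scanner software's ratios. Slc30a5 and Slc39a6 were named after their values were seen.

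The lists of other metals and thiol defence also had medians near 0. With 0.126% of all measured genes and transcripts called in either direction, 0 called says little about lists this short. Signs differed between arrays for 5 of 9 copper, 6 of 10 iron and 9 of 15 thiol and electrophile genes. Among all measured genes and transcripts they differed for 18044 of 28674, so small shifts were not resolved in these lists or elsewhere. Copper handling had 0 of 9 measured genes called and a median of −0.02, with the copper-zinc superoxide dismutase Sod1 at 0.01 ± 0.13 and the copper chaperone Atox1 at −0.01 ± 0.17. Iron handling had 0 of 10 called and a median of 0.02. The ferritin chains Fth1 (−0.10 ± 0.58) and Ftl1 (0.14 ± 0.67) differed in sign between arrays. Of 15 measured genes of the thiol and electrophile response, which also uses metallothioneins as thiol reserve, 0 were called, with a median of 0.04. The glutathione peroxidases Gpx4 (−0.10 ± 0.59) and Gpx1 (−0.24 ± 0.30) were its brightest.

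Hormone and cytokine routes also induce Mt1, Mt2 or Slc39a14, and their genes are set beside them. In the glucocorticoid list, 1 of 12 measured genes, the pyruvate dehydrogenase kinase Pdk4 (1.34 ± 0.11), was called higher, with 7 above 0 and 0 below 0 in both hybridisations and a median of 0.18. The other 5, Fkbp5, Tsc22d3, Dusp1, Per1 and Sult1a1, differed in sign and were named after their values were seen. Whether glucocorticoids act on Mt1 and Mt2 here was not tested. Among all measured genes and transcripts, 0.101% were called higher, 19.2% lay above 0 on both arrays and 17.9% below. In the IL-6 and acute phase list, 0 of 12 measured genes were called, with Cebpb at 0.46 ± 0.59, Hp at −0.16 ± 0.69 and a median of 0.02. Of these, 3 were above 0 and 0 below 0 in both hybridisations, and 9 differed in sign. The highest was the transcription factor gene Cebpd at 0.58 and 0.48, a mean of 0.53 ± 0.07, named after its value was seen.

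Skeletal muscle markers stood higher in DKO alongside Mt1 and Mt2. Of 14 measured, 2 were called higher (Eno3, 1.21 ± 0.33, and Mb, 1.004 ± 0.39), while 11 were above 0 and 1 below 0 in both hybridisations. The shares over all measured genes and transcripts were 0.101% called higher, 19.2% above 0 on both arrays and 17.9% below. The list median was 0.64. Their summed normalised signal was 22056 and 25304 in DKO, against 15627 and 14323 in WT. All 14 were detected, and the part of muscle RNA in the metallothionein ratios was not tested. In bulk tissue, more cells of a type and more RNA per cell cannot be told apart. Liver, another site of high metallothionein expression, had 0 of 8 markers called, with a median of −0.01, Alb at 0.18 ± 0.04 and Tat at −0.05 ± 0.12. On both arrays 3 liver markers lay above 0 and 2 below. The highest was Cyp2e1 at 0.38 and 0.66, named after its value was seen. The summed signal of the liver markers was 2045 and 2289 in DKO, against 2024 and 2083 in WT. Nerve and glia markers, relevant to Mt3, had 0 of 10 called and a median of −0.03, with S100b at 0.14 ± 0.36 and Tubb3 at −0.08 ± 0.02. Macrophage markers had 0 of 9 called and a median of 0.02, with Fcer1g at 0.02 ± 0.16 and Lyz2 at 0.20 ± 0.10. Of brown adipocyte markers, Dio2 (1.89 ± 0.32), the deiodinase that activates thyroid hormone, and the elongase Elovl3 (1.02 ± 0.02) were called among 14. On both arrays 6 of the 14 lay above 0 and 2 below, and 6 differed in sign, with a median of 0.03. Fabp4 was saturated in both genotypes on both arrays and Cidea in the Cy5 channel of both, which limits their ratios.

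**Figure D5:**
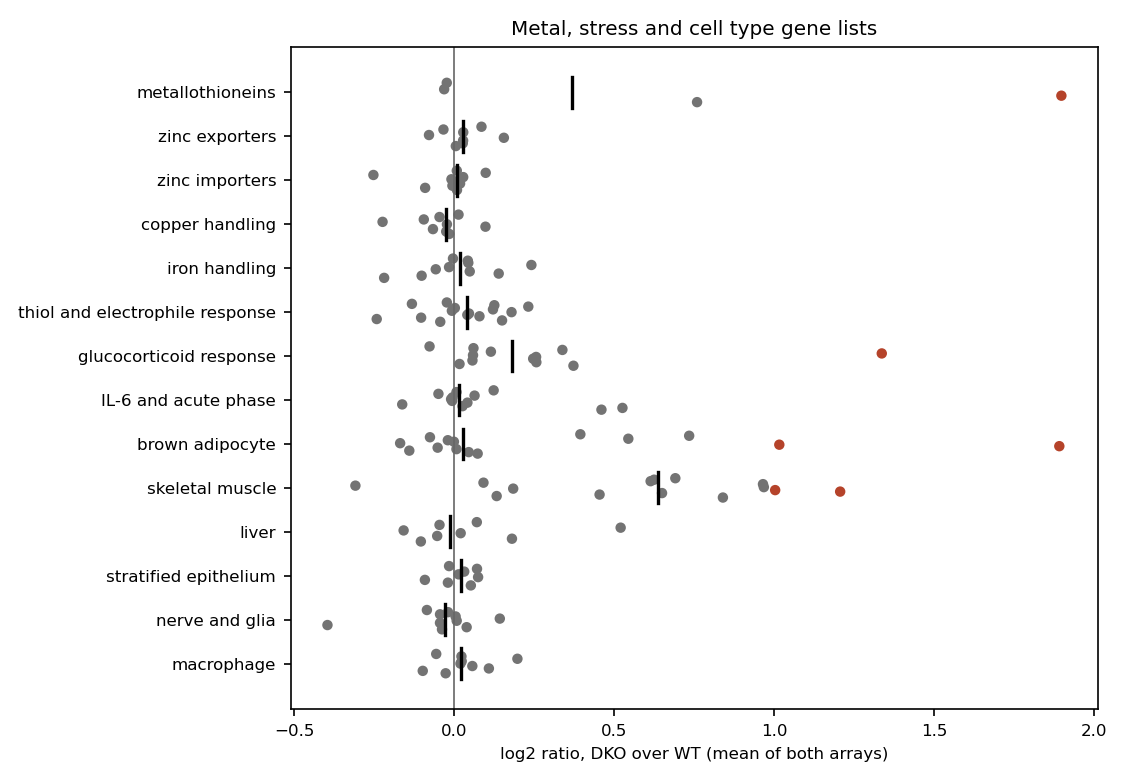
Mean log2 ratio of DKO over WT (horizontal axis) of each measured gene in 14 lists. Points are genes by their brightest probe, red where called, and black bars are list medians. Metal-handling lists centre near 0 around the metallothioneins Mt2 at 1.90 and Mt1 at 0.76, while the skeletal muscle list has a median of 0.64.

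Genes whose pair of array ratios was nearest to that of each metallothionein were found among 14098 other measured genes with a symbol, by Euclidean distance in log2 units over the 2 arrays. Nearest to Mt1 was Ucp1, the uncoupling protein of brown fat, at 0.74 and 0.73 and a distance of 0.05. It was followed by Myot, Hacd2, Tmed5 and Rbp7, with distances up to 0.17. Nearest to Mt2 was Fbxo31, a ubiquitin ligase subunit, at 1.85 and 1.79 and a distance of 0.25. Then came Pck1, Dio2, Gmpr and Cyp2b13, with distances up to 0.69. With 2 arrays this likeness rests on 2 numbers per gene.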

How the data were processed

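RNA of interscapular brown fat of DKO and WT mice was measured on 2 Agilent arrays with reversed dyes. Spot signals came from Agilent Feature Extraction 7.5, per the submitters' processing notes. The deposited files hold, per the file headers, intensity values on a linear scale, log10 ratios of red over green after spatial detrending and dye normalisation, and a p-value of each ratio from the software's error model. A deposited value table of log2 ratios was red over green of the same spots, within 0.001 for 40962 of 41001 and 41101 of 41141 values, with column medians of 0. Rosetta Resolver is named in the labels without its steps.

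Here, limma 3.58.1 (R 4.3.3) applied normexp with an offset of 50 to mean signals and median local backgrounds, then loess within each array with control spots weighted 0. The sign was turned where DKO was in Cy3 and the arrays were averaged. Signal levels were also scaled between arrays by Aquantile. Outlier spots (171 and 29) were left out. Well above background means the software's flag at 2.6 background SDs. Probes were named through RefSeq of GRCm38.p6 by accession (17524), symbol (2287), older symbol (933) or a metallothionein description (3), and 20232 kept the file's name. A gene was represented by its brightest probe, measured ones first, and measured requires 1 genotype well above background in both hybridisations.

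Named genes were all member probes, called genes of each list or else its 2 brightest, and the 5 nearest genes. Members, lists and tests were chosen with earlier results of these data known. Alternatives covered offset, signal, normalisation, dim filter, probe choice, size threshold, ratio source and each array alone. With 2 arrays, their number limits the precision. The level of 1 gene is not reported here. Tables and plots used Python 3.11.15, pandas 2.3.3, matplotlib 3.10.9 and numpy 2.4.6.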

Additional observations from a re-analysis of the deposited data

How the results depend on the processing

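Mt2 was called, as the 1 member, in every alternative run except the 1.5-fold mean threshold, which called 2 members, Mt1 and Mt2. These runs reuse the same 2 arrays and are not independent. The dim filter could not change the Mt2 call, since its brighter probe was well above background in every channel. The deposited value table repeats the scanner software's ratios. Its ratio was 1.27 when the probes of a gene were averaged and 1.71 to 2.09 with 1 array alone. The Mt1 ratio was 0.40 with averaged probes, since its 2 probes disagree, 0.90 with median centring in place of loess, and 0.73 to 0.79 with 1 array alone. Median centring put the median of all measured genes at 0.09 on the array with DKO in Cy5. The zinc transporter count stayed at 0 in all settings run, and their median was −0.0425 to 0.0225 with 1 array alone. Over all genes, the scanner software's ratios gave 52 higher and 28 lower calls, as did the deposited value table (52 and 28). A 1.5-fold mean gave 58 higher and 39 lower, a 3-fold mean 7 and 0, and offset 16 gave 13 lower. The array with DKO in Cy5 alone gave 32 higher and 38 lower, the other alone 55 and 9. Of 112 values of the remaining member probes under the alternatives, 96 moved by less than the SD between arrays, and all lay between −0.22 and 0.18. That count includes each array alone, where the distance from the mean is below that SD by construction. Causes of these changes were not tested, apart from the averaging of probes. Dim signal limits the ratios of Mtf1, Slc30a1 and Slc39a14, which the offset shrinks.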

Other observations

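Promoter windows and ratios were also set side by side for all 11236 measured genes with an entry in the promoter table, each by its window richest in metal response element cores. Of 92 genes with 4 or more cores, 1 was called higher in DKO, and that was Mt2. Of 275 genes with 3 cores, 1 was called higher (Tbc1d20, 1.08), and Mt1, also with 3 cores, was not called. Of 7235 genes with no core, 14 or 0.194% were called higher, against 0.196% over all 11236. The median ratio of the genes with 4 or more cores was −0.01. Behind Mt2 in that group came Etfdh, a mitochondrial electron carrier reductase, at 0.88 and 0.15, and Tecpr1, an autophagy gene, at −0.003 and 0.74, which differed in sign between arrays. These genes were named after their values were seen.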
